A study of Bos taurus with 16 samples.

Results

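Rumen papillae of steers that ate little but differed in body weight gain were compared: 4 animals of high gain and low intake against 4 of low gain and low intake, 8 of the 16 libraries sequenced, 1 library per animal. The 8 were chosen by the gain and intake group in their titles. All were crossbred steers aged 344 ± 48 days with free access to the same ration of corn (57.35%), distillers grains (30%) and alfalfa (8%). No treatment was given, and each animal was placed in a quadrant of gain and dry matter intake. The groups are therefore selected animals, and gain cannot be told apart from whatever else differed between the quadrants. The other 8 steers ate much, 4 with high and 4 with low gain, and enter only where the gain difference is set against that at high intake. Below, high gain and low gain mean the low-intake animals unless high intake is named, and animals carry replicate numbers 1 to 4 within their group.

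Papillae are the finger-like projections of the rumen wall. Their stratified epithelium takes up the short-chain acids made by microbial fermentation and turns part of the butyrate into ketone bodies. Beneath it lies a core of connective tissue with blood vessels, smooth muscle cells and immune cells. In bulk tissue, fewer cells of a type and less RNA per cell cannot be told apart.

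A gene's level is the mean read coverage per base of its best covered exon region, as deposited with totals that nearly match between libraries. Of 11995 genes with such a region, 8870 reached a level of 0.5 in at least 4 of the 8 libraries and were tested. Differences are high gain minus low gain on the scale of log2(level + 0.1), which understates changes of low genes. Epithelial markers included the keratin KRT6A at 850.9 to 2793 and the monocarboxylate carrier SLC16A1 at 96.4 to 286.0 in the 8 libraries, although the keratin KRT4 reached only 2.73. Of 9 markers of tissues that a papilla should lack, 4 were listed, and the highest level among them was 3.07 (the muscle enzyme CKM).

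One library stood apart from its group before any gene was compared. The first-exon index, the median log2 coverage of first exons relative to other exons of the same genes, was -4.76 in low-gain replicate 3 and -1.21, -0.98 and -1.13 in low-gain replicates 1, 2 and 4. High-gain replicates 2, 3 and 4 were also low, at -4.55, -3.58 and -3.38, and replicate 1 was at -2.29. Low-gain replicate 3 listed 917 tested genes at 0, high-gain replicate 2 listed 532, and the other 6 libraries listed 25 to 151. Across the tested genes, low-gain replicate 3 correlated at 0.355 to 0.391 with the rest of its group and at 0.941 with high-gain replicate 2. The other 3 low-gain libraries correlated at 0.948 to 0.954 with each other. Libraries low in first exons thus sat in both groups, 3 of 4 at high gain and 1 of 4 at low gain, and values without low-gain replicate 3 are given beside the gene lists below.

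**Figure D1:**
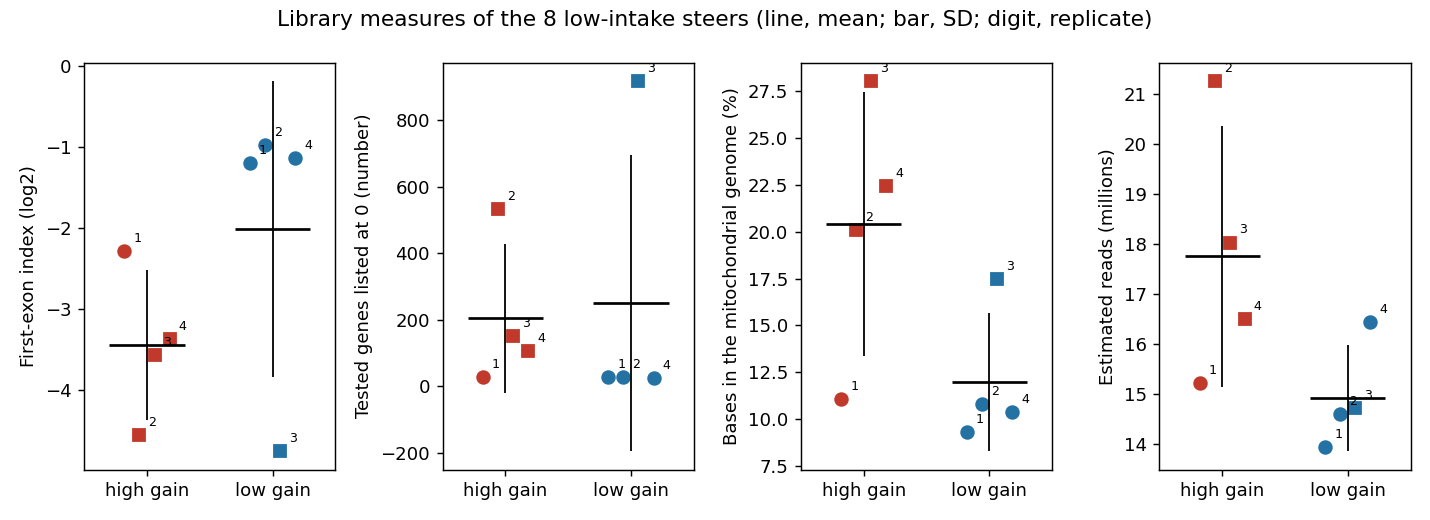
First-exon index (log2), number of tested genes listed at 0, share of bases in the mitochondrial genome (%) and estimated reads (M) of each library, with circles for libraries above an index of -3 and squares for those below it. Low-gain replicate 3 lies at an index of -4.76 with 917 genes at 0, while the other 3 low-gain libraries lie between -1.21 and -0.98 with 25 to 29 genes at 0.

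Mean differences in library measures did not pass adjustment. Estimated depth was 17.7 ± 2.60 M reads in high-gain and 14.9 ± 1.06 M in low-gain animals (SD, n = 4 each, exact two-sided permutation p = 0.0571, Benjamini-Hochberg 0.0952 over 5 measures, smallest possible p 0.0286). The mitochondrial genome held 20.4 ± 7.05% and 12 ± 3.70% of the bases (exact permutation p = 0.0571, adjusted 0.0952), and exons 58.0 ± 5.70% and 65.8 ± 4.40% (exact permutation p = 0.0571, adjusted 0.0952). For the first-exon index the exact permutation p was 0.286 (adjusted 0.357), and for the number of genes at 0 it was 0.943.

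No gene was called different between high and low gain after adjustment. Of 8870 genes, 0 (0%) passed limma's test with Benjamini-Hochberg adjustment at 0.05, and the adjusted p-values lay between 0.9997 and 0.9998. The unadjusted p was under 0.05 for 46 genes with higher estimates (0.519%) and 139 with lower estimates (1.57%), and with limma's trend and robust options switched off 0 were called as well. What follows about single genes in this fit therefore describes the genes with the smallest unadjusted p and those whose groups did not overlap. All 4 high-gain levels lay above all 4 low-gain levels for 47 genes (0.53%) and below them for 35 (0.395%). For 4 against 4 animals, full separation in either direction makes up a fraction of 0.0286 of the 70 possible arrangements. The shares of genes seen are smaller than that fraction. Non-overlap is therefore given below as a description of single genes and not as evidence of a difference. When levels were also taken without first exons, which 8453 genes allowed, 16 genes lay above in both levels (0.189%) and 20 below in both (0.237%).

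The lower genes with separate groups included growth factor and matrix genes. PEPD encodes prolidase, which splits dipeptides ending in proline or hydroxyproline, the residues collagen is rich in. Its level in exon 15 of 15 (chromosome 18, 44018745 to 44019293, UMD3.1) was 4.96, 4.32, 3.16 and 3.86 at high gain and 8.85, 7.03, 9.42 and 8.05 at low gain. All high-gain animals were below all low-gain animals, and low-gain replicate 3 was the highest. The log2 difference was -1.02 (SE 0.25, unadjusted p = 0.00115), and -0.96 without low-gain replicate 3. An estimated 53 to 128 reads lay behind each PEPD value.

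IGF2, the insulin-like growth factor 2 gene, was measured in its exon 5 (chromosome 29, 50063834 to 50065230). It stood at 2.37, 1.90, 0.52 and 1.88 at high gain and 7.79, 8.58, 2.58 and 3.62 at low gain. The groups did not overlap, although low-gain replicate 3 was only just above high-gain replicate 1. The IGF2 log2 difference was -1.70 (SE 0.49, unadjusted p = 0.00387), and -2.01 without low-gain replicate 3. FGFR1, a fibroblast growth factor receptor gene, was near the floor in both groups, at 0.22, 0.43, 0.13 and 0.10 against 0.85, 1.22, 0.54 and 1.00. Its log2 difference was -1.71 (SE 0.43, unadjusted p = 0.00131), and the FGFR1 values rest on an estimated 3 to 31 reads.

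IRX3, an Iroquois homeobox transcription factor gene, was covered over exons 2 to 4 of 4 (chromosome 18, 22691738 to 22693696). Its levels were 7.40, 5.76, 5.25 and 6.35 at high gain and 10.3, 9.68, 7.77 and 15.4 at low gain. Every high-gain animal was below every low-gain animal. The IRX3 log2 difference was -0.76 (SE 0.22, unadjusted p = 0.00343), and -0.90 without low-gain replicate 3. At high intake IRX3 also had a lower estimate at high gain, with a difference of -0.44, and the interaction had an unadjusted p of 0.311. Of the 9 measured homeobox and positional genes among 31 listed, 6 had lower and 3 higher estimates, with a median of -0.43 against 0.01 over all tested genes. Without low-gain replicate 3 the homeobox median was -0.18, with 7 lower, against -0.02 over all tested genes. PITX1, another of them, stood at 20.0, 5.98, 4.98 and 5.72 against 50.8, 62.0, 6.67 and 77.4. Low-gain replicate 3 was far below its group for PITX1 and overlapped the high-gain range.

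Matrix genes were among the other lower genes with separate groups. FBLN1, which encodes the matrix glycoprotein fibulin 1, was at 19.0, 20.2, 17.2 and 12.3 at high gain and 23.5, 29.0, 38.6 and 23.9 at low gain in its exon 17 (chromosome 5, 116695333 to 116696152). The groups did not overlap and low-gain replicate 3 was the highest. The difference in FBLN1 was -0.73 (SE 0.21, limma unadjusted p = 0.00363), and -0.58 without that library. At high intake the FBLN1 groups did not overlap either, at 10.5 to 14.8 for high gain and 20.0 to 23.0 for low gain. TNC, the gene of the matrix glycoprotein tenascin C, stood at 5.47, 8.31, 5.10 and 3.85 against 8.59, 12.01, 16.1 and 12.7 (difference -1.13, SE 0.48, and -0.99 without low-gain replicate 3). PRELP, which encodes a small leucine-rich proteoglycan of matrix, stood at 1.31, 1.33, 0.92 and 1.17 against 2.29, 2.91, 1.89 and 2.71 (difference -0.99, SE 0.31, and -1.10 without that library). Neither gene's groups overlapped, and the gap was narrow for TNC.

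Separate groups in both kinds of level were also seen for CXCR7, a scavenging chemokine receptor gene (0.80 to 1.11 against 1.59 to 2.26), and OLFM2 (0.32 to 0.44 against 0.64 to 1.07). RBPMS, which encodes an RNA-binding protein, lay at 0.56 to 1.05 against 1.50 to 3.46, on an estimated 3 to 13 reads. ALS2CL and C15H11orf31 had small unadjusted p-values but overlapping groups, because low-gain replicate 3 was at 0.31 and 0.27 where the other low-gain animals were at 3.88 to 4.34 and 19.3 to 104. The C15H11orf31 region is a first exon.

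Among the higher genes with separate groups, TTC22, which encodes a protein with tetratricopeptide repeats, stood at 13.3, 19.4, 16.9 and 14.8 at high gain and 9.20, 10.6, 10.8 and 11.2 at low gain (chromosome 3, 92082732 to 92083719, exon 7 of 7). High-gain animals were all above low-gain animals, with a TTC22 difference of 0.61 (SE 0.18, unadjusted p = 0.00481). In the level averaged over exon regions without a first exon the TTC22 difference was 0.07. At high intake the TTC22 groups did not overlap either, at 13.45 to 18.41 for high gain and 9.50 to 12.28 for low gain. TPRG1 was at 6.87, 6.14, 7.18 and 4.33 against 2.05, 3.45, 1.64 and 2.86 (difference 1.29, SE 0.45). LRTOMT, whose name marks a catechol O-methyltransferase domain, was at 1.99, 1.96, 1.04 and 1.15 against 0.89, 0.30, 0.55 and 0.42 (difference 1.38, SE 0.39). For both, the groups were separate whether or not first exons were used.

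Further genes were also separate and higher. NT5C2, a cytosolic nucleotidase gene, lay at 3.68 to 4.56 at high gain and 2.60 to 3.05 at low gain. HSPB8, a small heat shock protein gene, lay at 21.5 to 27.3 and 11.8 to 20.8. Of the 23 measured heat shock and cytosolic chaperone genes, 10 had higher estimates (43.5%, against 51.4% of all tested genes) and 13 lower (median -0.10). HIST1H1C, a linker histone gene, lay at 1.32 to 2.24 and 0.65 to 1.24, and reads of near-identical histone genes may be shared. PRIM1, the gene of the small primase subunit of DNA replication, lay at 2.30 to 4.84 and 1.12 to 2.17, and TLCD2 at 2.40 to 3.28 and 0.96 to 1.93. NT5M, a mitochondrial nucleotidase gene, had the smallest unadjusted p of the higher genes (0.000835) but rested on 0 to 6 estimated reads. It was listed at 0 in 3 low-gain libraries, and its direction reversed in other exon regions.

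**Figure D2:**
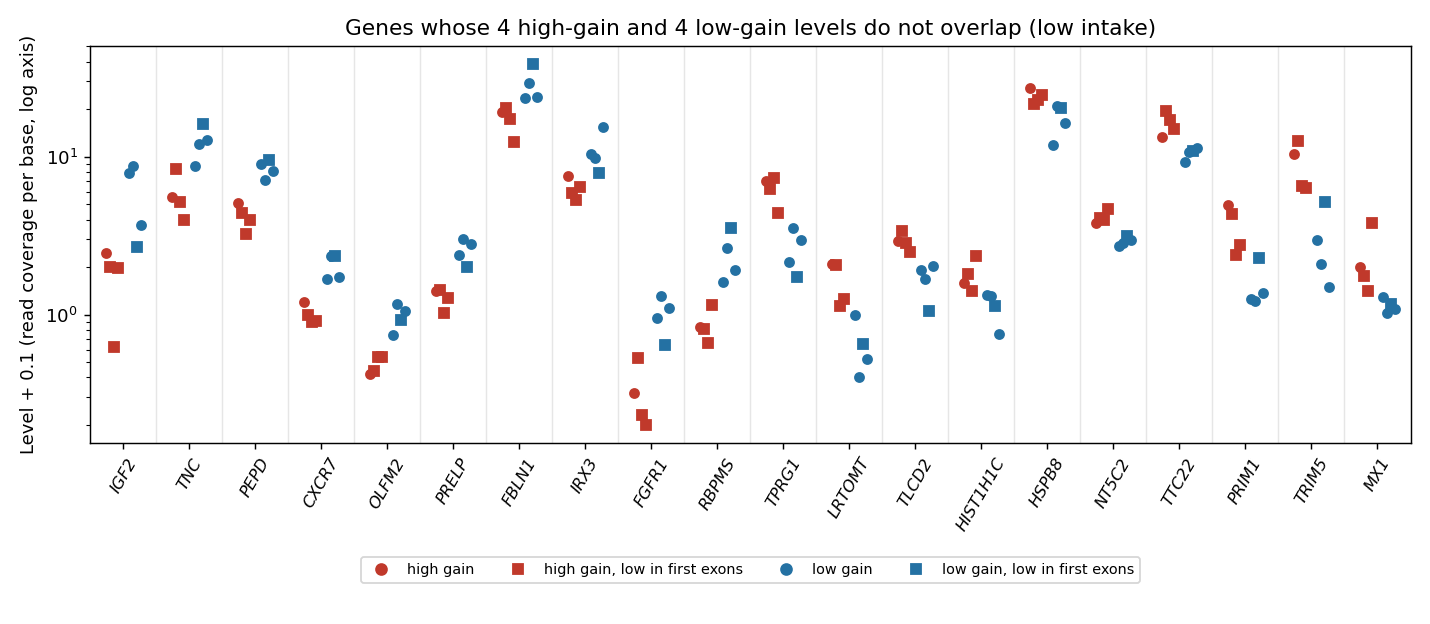
Level + 0.1 (read coverage per base, log axis) of 20 genes in the 8 low-intake libraries, 1 point per animal, red for high gain and blue for low gain, with squares for libraries low in first exons. Groups do not overlap for any gene shown. IGF2 at high gain lies at 0.52 to 2.37 and at low gain at 2.58 to 8.58. Whether the short region shown as TRIM5 is its locus was not checked.

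Matrix, muscle and vessel genes mostly had lower estimates at high gain, without any of them passing adjustment. The direction was not particular to low intake. Between the gain groups at high intake, the list medians were -0.41 for matrix, -0.94 for smooth muscle, -0.76 for endothelial and -1.03 for pericyte genes. The median over all tested genes there was -0.10. Replicate 4 of high gain and high intake was also low in first exons, at an index of -4.54. Of 26 measured genes of collagen and extracellular matrix (32 listed), 24 had lower estimates, against 4315 of 8870 over all tested genes, and the median was -0.60 against 0.01. The unadjusted p was under 0.05 for 5 of the 26, all lower (background 1.57%). COL4A1, a basement membrane collagen gene, lay at 5.83 to 10.96 at high gain and 12.4 to 17.8 at low gain, with no overlap. ELN, the elastin gene, was at 2.89, 0.59, 1.01 and 1.63 against 9.88, 8.82, 1.88 and 10.06, so that low-gain replicate 3 fell inside the high-gain range. The summed level of the matrix list was 595.7 to 778.1 at high gain and 897.6 to 1522 at low gain.

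The size of the matrix difference depended on low-gain replicate 3. In 15 of the 26 genes (57.7%) that library was the highest of the 8, against 32.8% of all tested genes. LUM, which encodes the proteoglycan lumican, was at 33.6, 68.4, 35.6 and 24.7 at high gain and 35.9, 39.5, 174.8 and 42.7 at low gain. COL3A1, the type III collagen gene, was at 97.7, 141.5, 78.0 and 58.6 against 108.8, 98.7, 392.5 and 79.6. DCN, the decorin gene, was at 15.4, 20.6, 16.5 and 11.6 against 15.8, 22.4, 53.8 and 18.7. In all 3, the low-gain animals other than replicate 3 lay inside or near the high-gain range. Without replicate 3 the list median was -0.28, with 21 of 26 estimates lower. COL1A1, the type I collagen gene, was instead low in the 4 libraries low in first exons, at 34.0, 0.10, 2.84 and 4.87 against 84.3, 64.0, 0.44 and 60.3. Within both kinds of library, 11 of the 26 were lower at high gain (42.3%, against 10.8% of all tested genes). Each kind has 1 animal on one side. High-gain replicates 2, 3 and 4 are set against low-gain replicate 3, and high-gain replicate 1 against low-gain replicates 1, 2 and 4. The part of uneven coverage in these differences was not tested.

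Smooth muscle genes had lower estimates for 14 of 15 measured (median -0.61), and the median without low-gain replicate 3 was -1.77. TAGLN, which encodes the actin-binding protein transgelin, was at 6.70, 2.38, 3.27 and 3.63 at high gain and 24.2, 38.8, 2.07 and 33.7 at low gain. High gain was below 3 of the 4 low-gain animals, while low-gain replicate 3 was the lowest of all. Endothelial genes had lower estimates for 15 of 16 (median -0.51), and for 13 of 16 without low-gain replicate 3 (median -0.69). Pericyte genes had lower estimates for 6 of 6 (median -0.75), and for 5 of 6 without that library (median -1.16). Within both kinds of library, 5 of 15 smooth muscle (33.3%), 3 of 16 endothelial (18.8%) and 1 of 6 pericyte genes (16.7%) were lower, against 10.8% of all tested genes. Each kind again had 1 animal on one side. Among libraries low in first exons, the medians were 1.11 for smooth muscle, 0 for endothelial and 0.15 for pericyte genes. Among the other libraries they were -0.76, -0.22 and -0.96. Fitting the first-exon index alongside gain left medians of -0.07, -0.34 and -0.12, in the same order. Lower estimates then remained for 8 of 15, 10 of 16 and 4 of 6 genes. These differences thus depended on how first-exon coverage was handled. PECAM1, a junction protein gene of endothelium, was close in the groups, at 4.39 to 7.61 and 5.97 to 7.83. VIM, the gene of the intermediate filament vimentin of connective tissue cells, was at 21.3, 34.7, 23.7 and 17.1 against 17.2, 25.4, 58.9 and 23.0 (difference -0.25, SE 0.40). Without low-gain replicate 3 the VIM difference was 0.12.

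**Figure D3:**
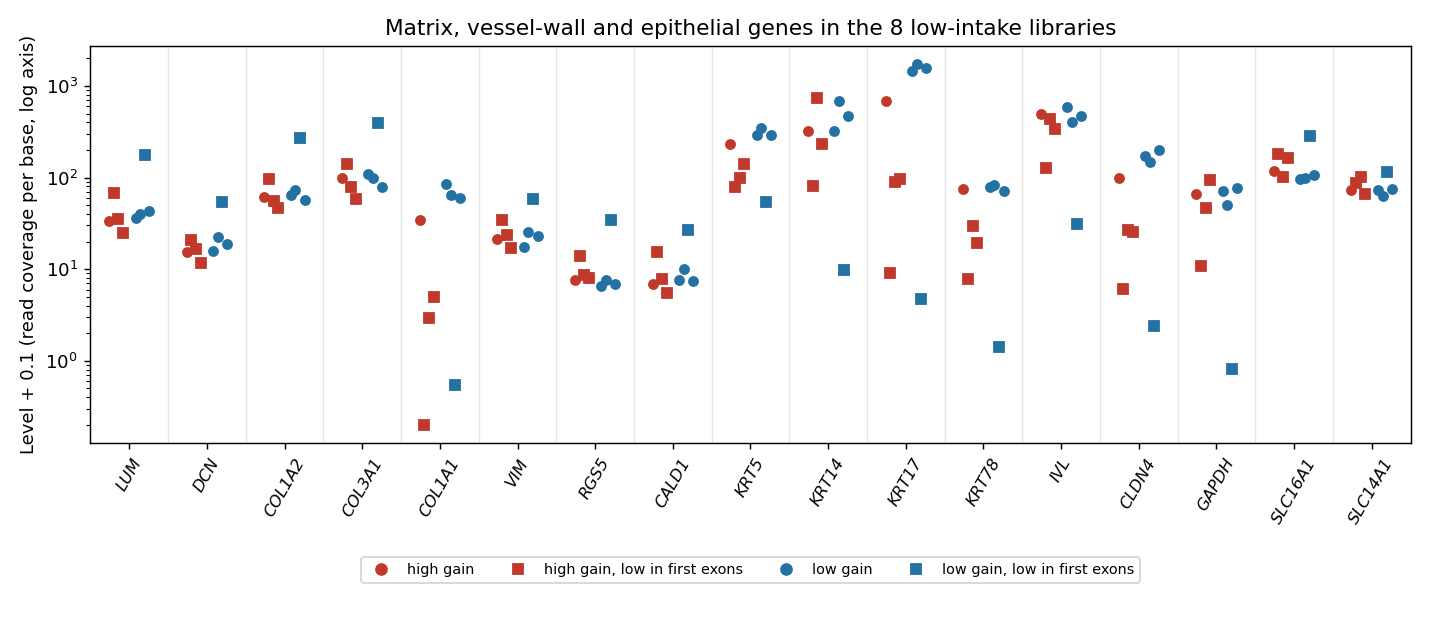
Level + 0.1 (read coverage per base, log axis) of 17 matrix, vessel-wall and epithelial genes in the 8 low-intake libraries, 1 point per animal, with squares for libraries low in first exons. The blue square, low-gain replicate 3, is the highest point for LUM (174.8) and COL3A1 (392.5) and the lowest for KRT17 (4.63) and GAPDH (0.72).

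Genes of acid uptake and ketone body synthesis did not pass the test. Of 20 measured genes of ketogenesis and short-chain acid use, 11 had higher and 9 lower estimates (median 0.08), and 12 and 8 without low-gain replicate 3 (median 0.04). SLC16A1, the monocarboxylate carrier gene, was at 117.4, 181.5, 100.6 and 164.0 against 96.4, 99.6, 286.0 and 106.2 (difference 0.07, SE 0.47, and 0.44 without low-gain replicate 3). SLC14A1, the urea transporter gene, was at 73.0, 86.9, 102.4 and 65.4 against 72.8, 63.2, 115.2 and 75.2 (difference 0.02, SE 0.26, and 0.20 without that library). For both transporters the highest value was that of low-gain replicate 3, and the groups overlapped.

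Several epithelial structure genes were low in libraries low in first exons. KRT5, a keratin of basal cells, was at 232.2, 79.1, 99.8 and 139.9 at high gain and 292.0, 349.4, 53.8 and 290.2 at low gain. Low-gain replicate 3 was the lowest of the 8, and the other low-gain animals were the highest. The KRT5 difference was -0.66 (SE 0.54), and -1.29 without that library (unadjusted p = 0.0046). KRT17, a keratin induced in stressed epithelium, spanned 4.63 in low-gain replicate 3 to 1735 in low-gain replicate 2. The cornified layer list (20 of 34 measured) had a median of -0.08, and -0.92 without low-gain replicate 3. KLK10, a protease gene of the cornified layer, did not reach the level needed for the test, at 0, 0.40, 0.97 and 0.26 against 0, 1.46, 0 and 1.79. S100A9, a calprotectin subunit gene, ranged from 8.36 to 114.3 at high gain and from 8.68 to 292.2 at low gain.

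Interferon-response genes had higher estimates for 17 of 23 measured (39 listed; 73.9%, against 51.4% of all tested genes), with a median of 0.24 against 0.01 over all tested genes. Without low-gain replicate 3 the estimates split into 13 higher and 10 lower, with a median of 0.14. The interferon median was 0.03 in levels that leave out first exons, and also 0.03 when the 5 of 16 libraries with an index under -3 were dropped. MX1, an interferon-induced GTPase gene that blocks viruses, was at 1.91, 1.66, 1.31 and 3.70 at high gain and 1.19, 0.93, 1.06 and 0.99 at low gain. The groups did not overlap, the difference was 0.87 (SE 0.36, unadjusted p = 0.0306), and an estimated 6 to 25 reads lay behind each MX1 value. GBP4, another interferon-induced GTPase gene, was at 3.46, 1.50, 2.29 and 8.40 against 1.07, 0.84, 3.09 and 0.37, with overlap through low-gain replicate 3 (difference 1.53, SE 0.63). TRIM5, a gene of restriction of retroviruses, was at 10.2, 12.5, 6.41 and 6.28 against 2.85, 1.99, 5.08 and 1.39. Its region was annotated as exon 2 of 8, with 4 to 45 estimated reads (chromosome 9, 57517515 to 57517615). Whether that short region is the TRIM5 locus was not checked. The TRIM5 groups did not overlap, and related TRIM genes may share its reads. TRIM40 lay at 1.10 to 2.94 against 0.38 to 1.12, with a difference of 1.39 (SE 0.49). IFITM3, which was listed at 0 in high-gain replicate 2 and low-gain replicate 3, was at 1.33 to 6.52 in the other high-gain and 11.3 to 12.9 in the other low-gain animals.

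When the first-exon index was added to the model, 542 genes were called higher at high gain (6.11%) and 38 lower (0.428%). Low-gain replicate 3 was at an extreme of the 8 libraries in most of the genes called. It was the lowest of the 8 libraries in 538 of the 542 higher genes (99.3%, against 33.8% of all tested genes) and the highest in 31 of the 38 lower ones (81.6%, against 32.8%). The cornified keratin gene KRT78 was at 74.0, 7.67, 29.2 and 19.3 at high gain and 78.7, 82.5, 1.31 and 71.8 at low gain. Its estimate was -0.25 without the index and 1.80 with it (SE 0.28, limma adjusted p = 0.0228). Without the index, 193 of the 542 higher genes (35.6%) had a higher estimate. Leaving out low-gain replicate 3, low-gain replicate 2, high-gain replicate 3 or high-gain replicate 4 each left 0 calls.

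Other genes with the smallest unadjusted p among the 542 were also low in low-gain replicate 3. MICALL1, MED31, NUP93, TOMM40, STIP1, SAP18 and FOXP4 were listed at 0 in low-gain replicate 3, and MINK1, MPRIP, TUBB2B and CIDEA stood there at 0.18 to 1.00. GAPDH, the glycolytic enzyme gene, was at 66.3, 10.6, 46.3 and 93.2 against 70.7, 49.6, 0.72 and 76.4, called with an index-adjusted difference of 2.85 (SE 0.54, limma adjusted p = 0.0228). By list, calls were higher for 4 of 18 glycolysis (22.2%), 7 of 68 oxidative phosphorylation (10.3%), 6 of 72 cytosolic ribosome (8.33%), 5 of 39 proteasome (12.8%) and 5 of 20 cornified layer genes (25%), against 6.11% of all tested genes. Other lists lay on both sides of that share, with 3 of 18 vacuolar proton pump genes called higher (16.7%). Calls were higher for 1 of 33 cell cycle (3.03%) and 1 of 26 endoplasmic reticulum chaperone genes (3.85%). They were 0 of 20 for ketogenesis, 0 of 23 for interferon-response and 0 of 28 for innate sensing genes. NT5M was also called higher (3.47, limma adjusted p = 0.0228), although 3 low-gain libraries were at 0 for it. The matrix list had 6 of 26 called lower (background 0.428%) and 0 higher, among them LUM, DCN, COL1A2, COL3A1, ELN and FBLN1. RGS5 and THBS1, also called lower, reached 34.6 and 21.7 in low-gain replicate 3 against at most 13.8 and 7.82 elsewhere. PEPD was called lower in this fit (-1.08, SE 0.26, limma adjusted p = 0.028) with groups that did not overlap.

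Leaving out low-gain replicate 3 alone gave 0 calls after adjustment (smallest limma adjusted p = 0.0741). It raised the genes with an unadjusted p under 0.05 to 486 higher (5.48%) and 1825 lower (20.6%). In that fit all high-gain libraries but replicate 1 were low in first exons and no low-gain library was, so gain and first-exon coverage cannot be told apart. High-gain replicate 1, the only high-gain animal above an index of -3, correlated at 0.903 to 0.910 with low-gain replicates 1, 2 and 4.

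The gain difference at low intake was set against that at high intake by an interaction term. Of 8870 genes, 0 (0%) passed limma's adjusted threshold, with 27 higher (0.304%) and 13 lower (0.147%) at an unadjusted p under 0.05, and limma without trend and robust options also called 0. MX1 had the smallest unadjusted p among the genes named (0.000344). At high intake it was at 2.90, 1.37, 0.99 and 2.01 at high gain and 3.77, 6.15, 4.82 and 5.85 at low gain. The order of the groups was thus opposite at the 2 intakes, with an interaction of 2.40 (SE 0.52). TRIM5 was at 0.34 to 2.70 and 1.07 to 4.04 at high intake, against 6.28 to 12.5 and 1.39 to 5.08 at low intake (interaction 2.89, SE 0.82). These values come from the same short region, not checked to be the TRIM5 locus. FAM48A, a subunit gene of a histone acetyltransferase complex, lay at 1.89 to 3.65 and 3.88 to 5.88 at high intake and 4.13 to 5.14 and 2.16 to 3.89 at low intake. PEPD at high intake lay at 5.10 to 6.17 and 3.23 to 7.23, so its groups overlapped there (interaction -1.10, SE 0.36). PFN4, a profilin gene, was also named, but rested on at most 4 estimated reads at low intake. ASIP, the agouti signalling gene, was at 37.7, 6.51, 49.2 and 32.5 against 34.1, 6.42, 2.39 and 23.7 at low intake, with overlapping groups.

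**Figure D4:**
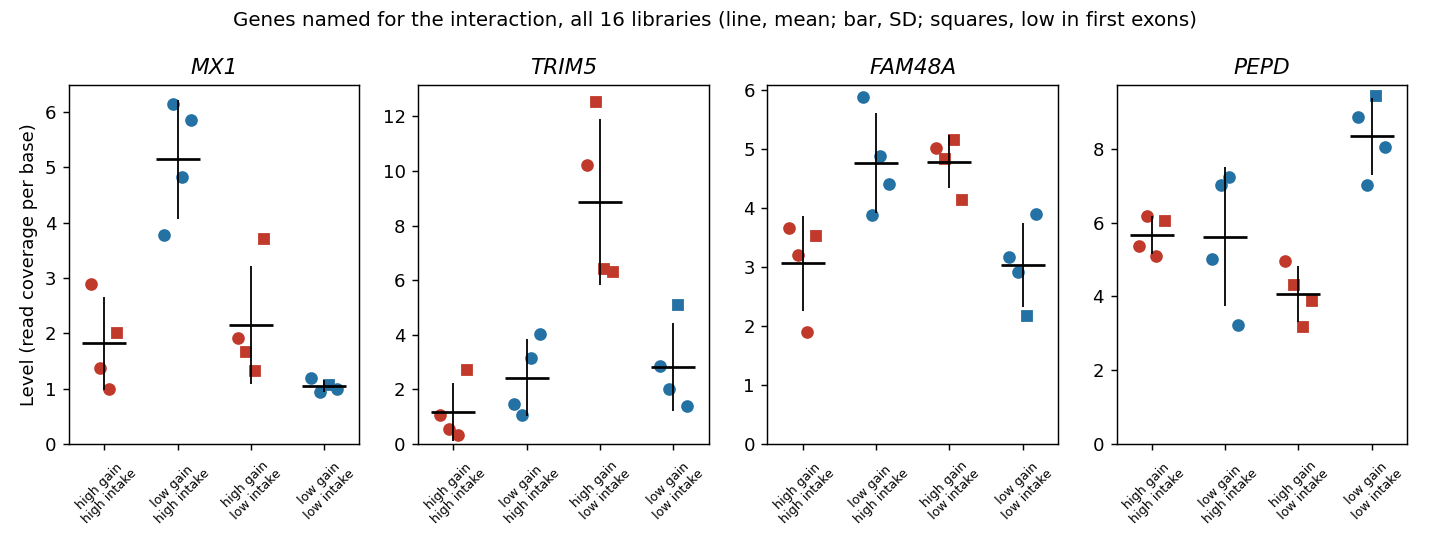
Level (read coverage per base) of MX1, TRIM5, FAM48A and PEPD in all 16 libraries by gain and intake, 1 point per animal, with the group mean (line), SD (bar) and squares for libraries low in first exons. MX1 is highest at low gain and high intake (3.77 to 6.15) and lowest at low gain and low intake (0.93 to 1.19). Whether the short region shown as TRIM5 is its locus was not checked.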

How the data were processed

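Polyadenylated RNA from rumen papillae of 16 steers was read as single 50-base reads, per the labels' protocols. TopHat2 2.08b and the genome UMD3.1 are named, per the submitters' processing notes; aligner settings, annotation, strand and coverage tool were not given in the sources used here. In the file, the signal values are, as deposited, mean read coverage per base of 2351373 regions with 1 scaling factor for each library, as inferred from single-read regions and near-equal totals, and estimated reads come from the value of 1 read. Sample columns were matched by the animal number in the title. A gene's level was its exon region of a single gene with the highest mean over 16 libraries (510 regions with exons of several genes left out). For 72 genes with exon regions on several chromosomes, the best covered region was taken whatever its chromosome. Genes at 0.5 or more in at least 4 of the 8 low-intake libraries (8870) were fitted as log2(value + 0.1) with limma 3.58.1 in R 4.3.3 (trend and robust options, 4 group means, all 16 libraries), with Benjamini-Hochberg adjustment over all genes and a threshold of 0.05. Coverage is not a count, so no count test was used. The first-exon index uses 834 genes with at least 6 exons, and libraries under -3 are called low.

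Genes were named by the smallest unadjusted p per fit and direction (12 past the threshold, filled up to 8 where fewer passed; 4 and 3 for the interaction), by non-overlapping groups in both kinds of level (6 largest per direction), up to 4 per list, and fixed genes. Genes outside this rule that are named for a list, for non-overlap or as a described exception were chosen after their values were seen. A few of the rule's genes are not reported here. The members and lists were chosen with earlier results of these data known. In the main limma fits, p-values set a difference of group means against the spread within the 4 groups, estimated from all 16 libraries. That spread holds uneven first-exon coverage of libraries as well as differences between animals. In simulated data, the fit on group means recovered 44% of genes changed by a log2 of 2 and 65% of those changed by 3, with 4 false calls. The simulated noise was independent between genes, with the spread left after the index and a linear effect of the index added. In the real data low-gain replicate 3 lay apart in many genes together, so these rates need not hold there. Even in the simulation, many changed genes were missed. An absence of calls is therefore not an absence of differences. SLC9A2 was not analysed here. Alternatives covered the pseudocount, filter, gene level, scaling, limma options, covariate and leaving out libraries.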

Additional observations from a re-analysis of the deposited data

Results flagged for a closer look

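In low gain, low intake replicate 3 the first-exon index (-4.76), the share of bases in exons (59.2%) and the number of tested genes listed at 0 (917) each lay far from the other 3 libraries of its group, by a gap test at the 95% level that flags about 1 in 20 groups by chance. Of 180 genes named by rule, the level of low-gain replicate 3 was flagged in the same way in 106, of high-gain replicate 2 in 9, of high-gain replicate 1 in 3, of high-gain replicate 3 in 2 and of low-gain replicate 1 in 1. High-gain replicate 4 and low-gain replicates 2 and 4 were not flagged for any of these genes. Some of the named genes came from the fit with the first-exon index, whose called genes mostly had low-gain replicate 3 at an extreme. The count of 106 therefore depends in part on how the genes were named. Flags were not counted over all tested genes, where that library was the lowest of the 8 in 33.8% and the highest in 32.8%.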

How the results depend on the processing

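The fit on group means kept 0 calls in each direction under every alternative but the first-exon index (542 higher and 38 lower). With the index as covariate, the counts of 542 higher and 38 lower moved to 251 and 25 with all exon regions, 248 and 19 without first exons, and 107 and 12 after quantile normalization. Scaling to coverage outside the mitochondrial genome gave 1085 higher. Both counts were 0 with a pseudocount of 0.5 or 1, and with the exon share or the first principal component as covariate. Leaving out 1 library gave 0 to 1079 higher and 0 to 161 lower: 0 and 0 without high-gain replicate 3 or 4 or low-gain replicate 2 or 3, 1079 and 78 without high-gain replicate 2, 308 and 11 without low-gain replicate 4, and 161 lower without high-gain replicate 1. The cause was not tested.

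Some signs reversed. NT5M was at -1.50 in the last-exon region, -0.34 over all exons and -0.27 without first exons. With the index, SAP18 was at -0.054, -0.10 and -0.080, VASP at 0.79, 0.38 and 0.46, and STIP1 at -0.23 over all exons and without first exons. Leaving out 1 library, the depth difference ran from 1.66 M without high-gain replicate 2 to 3.67 M without high-gain replicate 1 (exact permutation p = 0.0286). The difference in genes at 0 was -46.0 and ran from -155.4 without high-gain replicate 2 to 12.9 without high-gain replicate 1 and 176.4 without low-gain replicate 3.

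Scaling outside the mitochondrial genome moved the median of all genes from 0.01 to 0.15, and quantile normalization to 0.25; the matrix median was then -0.46 and -0.45. No paired analysis was possible because nothing in the labels ties an animal to one of another group. Low levels in short regions rest on few reads, and the values carry no read counts.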

Other observations

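Genes of protein folding in the endoplasmic reticulum had higher estimates at high gain for 19 of 26 measured (73.1%, against 51.4% of all tested genes), with a median of 0.16. Without low-gain replicate 3 the split was 15 higher and 11 lower, with a median of 0.06. Both among libraries low in first exons and among the others, 16 of the 26 were higher (61.5%, against 15.8% of all tested genes). Each of these comparisons has 1 animal on one side, low-gain replicate 3 or high-gain replicate 1. Without low-gain replicate 3, limma's unadjusted p was under 0.05 for 6 lower and 0 higher genes of the 26 (background 20.6% and 5.48%). None was called in the fit on group means. With the first-exon index 1 was called higher, CRELD1, which was at 3.78, 0.60, 1.31 and 1.61 at high gain and 3.57, 3.53, 0.20 and 4.06 at low gain. CRELD2, a chaperone-associated gene, was at 2.96, 0.15, 0.21 and 0.21 against 4.76, 6.49, 0.02 and 3.39.

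Proteasome genes had higher estimates for 26 of 39 (66.7%, against 51.4% of all tested genes), with a median of 0.10. Without low-gain replicate 3 the split was 21 higher and 18 lower, with a median of 0.08. Cytosolic ribosomal protein genes split into 39 higher and 33 lower estimates, with a median of 0.03, and -0.45 without low-gain replicate 3. That library was the lowest in 46 of the 72 (63.9%, against 33.8% of all tested genes). Macrophage and dendritic cell genes had a median of -0.12, with 6 of 14 higher, and a median of -0.08 without low-gain replicate 3.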
